A study of Homo sapiens with 10 samples.

Results

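The genes described are 10 factors and targets of YAP/TEAD signalling, chosen by gene symbol from the 46427 genes of an RNA sequencing table of human lung cancer cells. They are the co-activators YAP1 and WWTR1, the DNA-binding factors TEAD1 and TEAD4, and 6 targets, CCN1, CCN2, ANKRD1, AMOTL2, AXL and AJUBA, and all 10 had reads in every library. H460 and A549, both established lines from lung tumors, were grown on plastic in serum (2D) or in suspension as tumor spheroids (TS). H460 cells that stayed attached after replating were taken as surviving cisplatin at 4 uM (CR), paclitaxel at 5 nM (PR) or doxorubicin at 0.5 uM (DR), each given for 3 days and followed by 3 days without drug, with RNA taken on day 8. Untreated 2D cells of H460 are called parental, and they were the control for CR, PR, DR and H460 TS. TS cells were passaged 3 times on a coated, non-adhesive surface in serum-free medium with growth factors until day 29, so that suspension, medium and time in culture cannot be told apart. There were 3 parental libraries, 2 PR libraries and 1 library each of CR, DR, H460 TS, A549 2D and A549 TS. The labels do not say whether replicates came from separate cultures, so that a p-value measures the spread between these libraries only. Reads counted on genes ranged from 59499787 to 89541774 per library, with a median of 71656787.

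In the Hippo pathway, a chain of kinases phosphorylates YAP1 and WWTR1, the latter also named TAZ, and keeps them out of the nucleus. When cells spread on a stiff surface the kinases are less active, YAP1 and WWTR1 enter the nucleus, and they switch on genes by binding TEAD factors, which recognise the DNA letters GGAATG. The pathway is read out by the RNA of its targets more than by the RNA of YAP1 itself, because its control acts mainly on the protein. No protein or phosphorylation was measured here.

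Of the keratins, the filament proteins of epithelial cells, KRT8 and KRT18 were high in both lines, and KRT8 was 447, 398 and 380 FPKM in the parental libraries and 1446 FPKM in A549 2D. KRT7 was 1221 FPKM in A549 2D and at most 11.2 FPKM in H460, and KRT19 was 3.57 FPKM in A549 2D and at least 138 FPKM in H460. FPKM is the number of fragments scaled to the length of the transcript and the depth of the library. Of the other epithelial markers, EPCAM was at most 0.114 FPKM in H460, and CDH1 was at most 0.0266 FPKM in H460 but 9.29 FPKM in A549 2D. The lung markers NKX2-1, SFTPB and SFTPC were at most 0.139, 0 and 0.0926 FPKM, and they do not set these lines apart as lung cells. Sums over whole lists were 718 to 7549 FPKM for epithelial and 0 to 0.232 FPKM for lung genes. Endothelial markers summed to at most 0.484 FPKM in a library, and the leukocyte genes PTPRC and CD3E were at most 0.157 and 0.0582 FPKM, whereas CD14 was 2.78 to 9.49 FPKM in parental and 11.5 to 17.1 FPKM in drug-resistant libraries. The list of 6 fibroblast genes summed to between 3.84 and 32.5 FPKM, with COL3A1 or LUM or PDGFRB as the most abundant. The sum hides opposite differences, since COL3A1 was at least 13.6 FPKM in parental and at most 7.22 FPKM in drug-resistant libraries, and COL1A1 at most 0.193 FPKM and at least 0.783 FPKM. Markers differed in TS cells as well. In H460 TS LUM was 26.6 FPKM against 0.237 to 2.76 FPKM in parental cells, COL3A1 was 1.30 FPKM and KRT19 was 138 FPKM against 343 to 407 FPKM, while in A549 TS KRT19 was 68.3 FPKM and KRT8 3866 FPKM.

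The promoter of CCN2 is shown because it holds several TEAD motifs while CCN2 was not lower in TS cells, unlike CCN1, ANKRD1, AXL and AJUBA. The line gives the 250 bases before the start of CCN2, from RefSeq GRCh38.p14, minus strand, at chr6:131951373-131951622. Capitals mark GGAATG, searched on both strands as GGAATG or CATTCC, and the 3 matches share no letters.
CCN2 promoter: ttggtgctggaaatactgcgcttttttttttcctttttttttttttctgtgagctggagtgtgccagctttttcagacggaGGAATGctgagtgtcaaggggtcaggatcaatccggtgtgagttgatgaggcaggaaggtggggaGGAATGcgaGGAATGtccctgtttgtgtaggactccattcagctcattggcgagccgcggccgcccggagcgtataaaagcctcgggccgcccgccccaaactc
The first letters of these matches lay 169, 104 and 95 bases before the start. Of 35116 such windows over all annotated starts, 11.9% held at least 1 match, 0.94% at least 2 and 0.0826% at least 3. Promoter entries were found for 7 of the 10 genes, and CCN1, TEAD1 and TEAD4 had no entry. Among the 11 windows of those 7 genes, 6 held a match, and those of WWTR1 held none. Stretches of 30 bases around matches in ANKRD1 (chr10:90921290-90921319 and chr10:90921198-90921227, minus strand), AJUBA (chr14:22976884-22976913, minus strand), AMOTL2 (chr3:134374499-134374528, minus strand) and AXL (chr19:41226531-41226560, plus strand) are given for comparison, from the strand of the gene.
ANKRD1 at 220 bases: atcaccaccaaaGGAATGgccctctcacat
ANKRD1 at 128 bases: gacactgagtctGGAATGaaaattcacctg
AJUBA at 59 bases: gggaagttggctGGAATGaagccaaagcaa
AMOTL2 at 69 bases: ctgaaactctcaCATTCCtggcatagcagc
AXL at 212 bases: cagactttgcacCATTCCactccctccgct
The distance is from the first letter of the match to the start it precedes, and for AJUBA, AMOTL2 and AXL that is 1 of 2 annotated starts. These are matches of letters and no binding was measured.

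The co-activators were expressed in all libraries, over a 1.74-fold range for YAP1 and a 1.96-fold range for WWTR1. YAP1 ranged from 10.1 FPKM in H460 TS to 17.6 FPKM in PR replicate 1, and its median was 13.4 FPKM. WWTR1 ranged from 17.6 FPKM in parental replicate 1 to 34.4 FPKM in A549 TS. Neither gene separated the 4 drug-resistant libraries from the 3 parental ones, since the ranges overlapped. For WWTR1 the overlap was narrow, with PR replicate 2 at 25.27 FPKM and parental replicate 3 at 25.33 FPKM. The other drug-resistant libraries lay above every parental one for WWTR1. WWTR1 was 20.3 ± 4.35 FPKM (SD, n = 3) in parental and 30.6 ± 3.89 FPKM (SD, n = 4) in drug-resistant libraries, and edgeR's quasi-likelihood test with Benjamini-Hochberg adjustment gave an adjusted p of 0.134 for it. This test fits read counts scaled by TMM, a trimmed mean of log ratios, and the adjusted p limits the expected share of false calls among all genes tested. A log2 fold change of 1 is 2-fold higher and -1 is 2-fold lower. WWTR1 was called in 3 of 14 alternatives, which were without parental replicate 3, with 0.0396, and by limma with pseudocounts of 1 and 0.1, with 0.0363 and 0.0317. An antisense gene, WWTR1-AS1, shares 795 exonic bases with WWTR1 on the opposite strand, and it had at most 64 reads against at least 6715 for WWTR1.

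**Figure D1:**
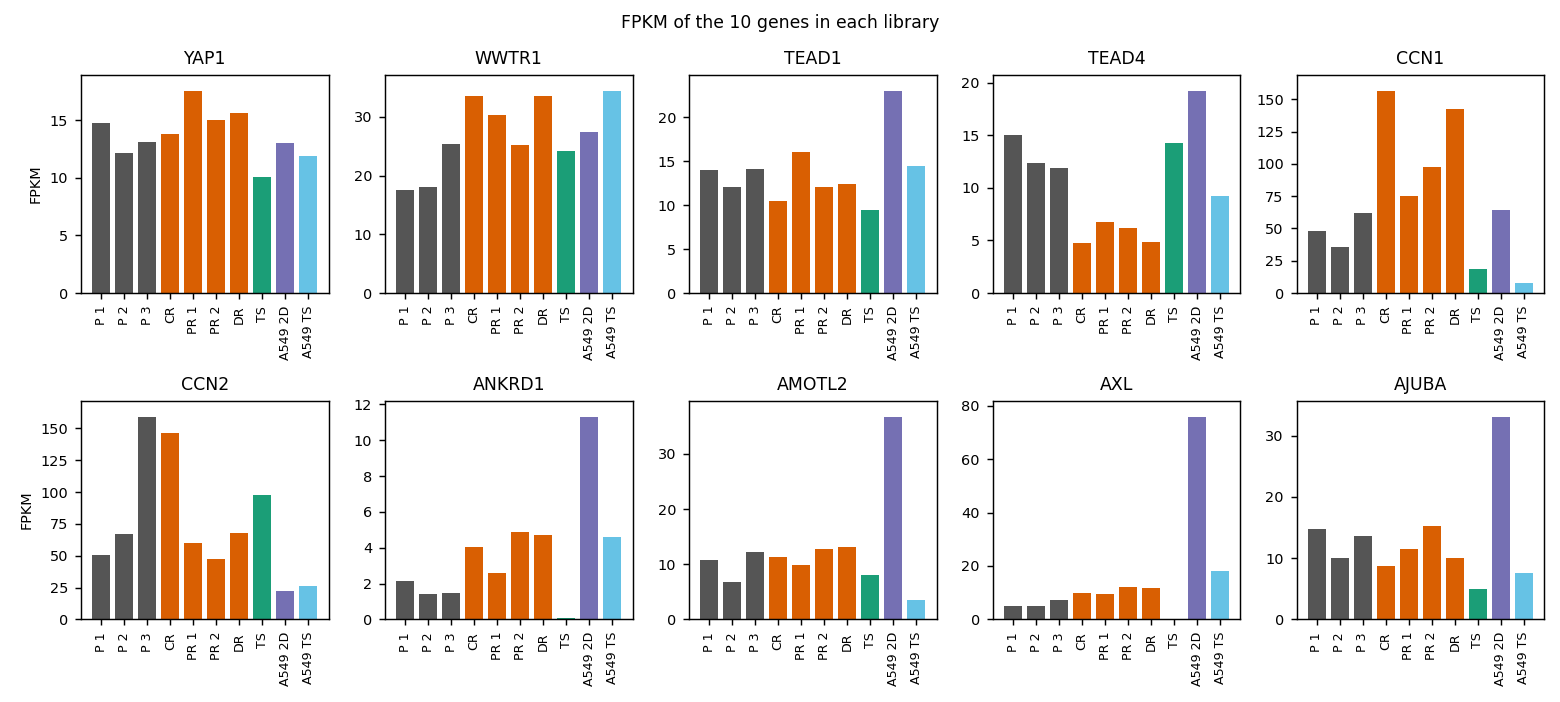
FPKM of the 10 genes, 1 panel a gene, with 1 bar for each library (P, parental; numbers are replicates). In H460 TS the bars of ANKRD1 and AXL are almost absent, at 0.0908 and 0.04 FPKM, while that of CCN2 is 97.6 FPKM.

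To see how cells that survived a drug differed, the 4 drug-resistant libraries were compared with the 3 parental ones. CR and DR have 1 library each, so the 4 were taken as 1 group, and its spread includes differences between drugs. TEAD4, a DNA-binding partner of YAP1, was lower in them, and the targets CCN1, ANKRD1 and AXL were higher. Surviving cells were also replated and taken by their attachment, and whether parental cells were replated is not stated. Drug and this handling therefore cannot be told apart. Among all 18398 genes tested, 18.5% were called higher and 15.3% lower at an adjusted p under 0.05, and among the 10 genes 3 were called higher and 1 lower. The share called higher was above that of all genes and the share called lower was below it, on 10 genes. The 4 genes did not overlap between the groups, as was so for 25.8% of genes above and 13.6% below, against 3 above and 1 below among the 10.

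TEAD4 (chr12:2959397-3040676) was 15.1, 12.3 and 11.9 FPKM in parental replicates 1, 2 and 3, and 4.74 FPKM in CR, 6.79 and 6.21 FPKM in PR and 4.88 FPKM in DR. Each drug-resistant library lay below each parental one. EdgeR's quasi-likelihood test with Benjamini-Hochberg adjustment gave a log2 fold change of -1.33 ± 0.18 (SE) and an adjusted p of 0.000582. In all 14 alternative settings tried for this comparison TEAD4 was called, with adjusted p between 1.48e-09 and 0.00327. Its relative TEAD2 was also called lower, at -0.80, but not without parental replicate 2, with an adjusted p of 0.0528. TEAD3 was called higher, at 0.75, but not without parental replicate 1 or 2 or PR replicate 1 or 2, with 0.113, 0.119, 0.0666 and 0.0969, and TEAD1 was not called, at -0.20 ± 0.19 (SE) on the log2 scale.

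CCN1 (chr1:85580761-85583950), a secreted matrix protein, was 47.7, 35.6 and 62.1 FPKM in the parental libraries, 157 FPKM in CR, 75.2 and 97.9 FPKM in PR and 143 FPKM in DR. It was higher in each drug-resistant library than in each parental one, and highest in CR and DR. ANKRD1 (chr10:90912096-90921087), a nuclear and sarcomeric ankyrin protein, was 2.11, 1.40 and 1.496 FPKM in parental cells, 4.06 FPKM in CR, 2.58 and 4.87 FPKM in PR and 4.73 FPKM in DR. AXL (chr19:41219223-41261766), a receptor tyrosine kinase, was 4.87, 4.95 and 7.33 FPKM in parental cells, 9.74 FPKM in CR, 9.62 and 12.1 FPKM in PR and 11.8 FPKM in DR. Both genes therefore kept the 7 libraries apart by group. In log2 fold change, CCN1 was 1.18 ± 0.33 (SE), ANKRD1 1.17 ± 0.29 (SE) and AXL 0.79 ± 0.22 (SE), with adjusted p of 0.0217, 0.0129 and 0.0191 by edgeR's quasi-likelihood test with Benjamini-Hochberg adjustment.

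These 3 calls depended on which libraries were used. Without parental replicate 1, CCN1 and AXL had adjusted p of 0.0725 and 0.0736 in the same test, and without parental replicate 2 CCN1, ANKRD1 and AXL had 0.0949, 0.06 and 0.0841, with log2 fold changes of 0.96, 1.01 and 0.64. Without the DR library AXL was at 0.05002. With the form of the library name as a covariate CCN1 and ANKRD1 had log2 fold changes of 1.104 and 1.03, near those without it, and adjusted p of 0.0903 and 0.0643. Within names without a hyphen (parental replicates 1 and 3 against PR replicate 1), CCN1 differed by 0.23, ANKRD1 by 0.30 and AXL by 0.44 on the log2 scale, and within names with a hyphen (parental replicate 2 against PR replicate 2, CR and DR) by 1.83, 1.66 and 1.13. All differences were positive, and those in names without a hyphen were the smaller. This split was chosen after seeing the data and has no test because 1 arm of each part is a single library. CR and DR are in the hyphen part only, so that their form and drug cannot be told apart. PR has a library in each part. CCN1 was 75.2 FPKM in PR replicate 1 against 47.7 and 62.1 FPKM in its parental libraries. In PR replicate 2 it was 97.9 FPKM against 35.6 FPKM. ANKRD1 was 2.58 FPKM against 2.11 and 1.496 FPKM, and then 4.87 FPKM against 1.40 FPKM. AXL was 9.62 FPKM against 4.87 and 7.33 FPKM, and then 12.1 FPKM against 4.95 FPKM.

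CCN2 (chr6:131948176-131951372), the close relative of CCN1, was 50.3, 66.9 and 159 FPKM in parental replicates 1, 2 and 3, 147 FPKM in CR, 59.6 and 47.1 FPKM in PR and 68.2 FPKM in DR. Parental replicate 3 and CR stood far above the rest, so that the groups overlapped widely. The log2 fold change was -0.30 ± 0.49 (SE), with an adjusted p of 0.661 by edgeR's quasi-likelihood test with Benjamini-Hochberg adjustment, and without parental replicate 3 it was 0.39. In parental replicate 3 FOS and EGR1, immediate-early genes whose RNA appears within minutes of a stimulus, were also high beside the other parental libraries. FOS was 170 FPKM there against 5.08 and 1.56 FPKM in parental replicates 1 and 2, and EGR1 was 73.7 FPKM against 6.40 and 0.779 FPKM. In CR both EGR1, at 135 FPKM, and CCN2 were high too, while in PR replicate 1 and DR EGR1 was 102 and 81.4 FPKM and CCN2 59.6 and 68.2 FPKM. CCN1, which was 62.1 FPKM there, was also highest of the 3 parental libraries. Whether the conditions at harvest differed was not tested. AMOTL2, AJUBA and TEAD1 overlapped between the groups, and AMOTL2 was 9.85 ± 2.84 FPKM (SD, n = 3) in parental and 11.7 ± 1.495 FPKM (SD, n = 4) in drug-resistant libraries.

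**Figure D2:**
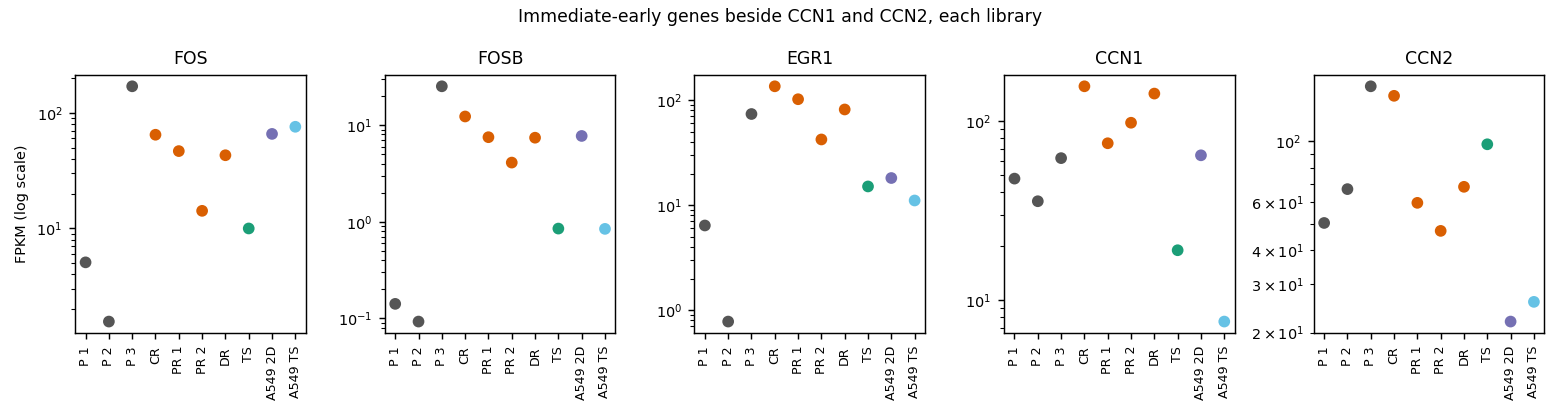
FPKM on a log axis of the immediate-early genes FOS, FOSB and EGR1 and of CCN1 and CCN2 in each library. In parental replicate 3 FOS is 170 FPKM, and CCN2 is 159 FPKM, the highest of the 10 libraries for both.

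The drugs were compared with the parental mean also by a 2-fold rule on log2(FPKM + 1), which has no test because CR and DR have 1 library. In CR, 2 of the 10 genes differed more than 2-fold, CCN1 at 1.67 and TEAD4 at -1.30, against 13% of all genes that reached 1 FPKM. In DR there were 3, CCN1 at 1.54, ANKRD1 at 1.103 and TEAD4 at -1.26, against 11.6% of genes. In PR there were 0, against 13.4% of genes, with CCN1 at 0.82 and TEAD4 at -0.91. These counts depended on the settings. In PR, ANKRD1 passed with a pseudocount of 0.1, and TEAD4 and AXL passed with parental replicate 1 alone as control. In CR, CCN2 and ANKRD1 passed as well with parental replicate 2 alone as control. CCN2 passed there also with parental replicate 1 alone, and ANKRD1 with parental replicate 3 alone or a pseudocount of 0.1. In DR, AXL passed as well with a pseudocount of 0.1 or with parental replicate 1 or 2 alone. ANKRD1 missed the rule in DR with parental replicate 1 alone. For CCN2 the difference was 0.67 with cisplatin, -0.78 with paclitaxel and -0.43 with doxorubicin, and the sign with doxorubicin rests on parental replicate 3, at 159 FPKM. DR, at 68.2 FPKM, lay above parental replicates 1 and 2, as did CR, whereas PR replicate 1 lay between them and PR replicate 2 below both. These comparisons share the same parental libraries.

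**Figure D3:**
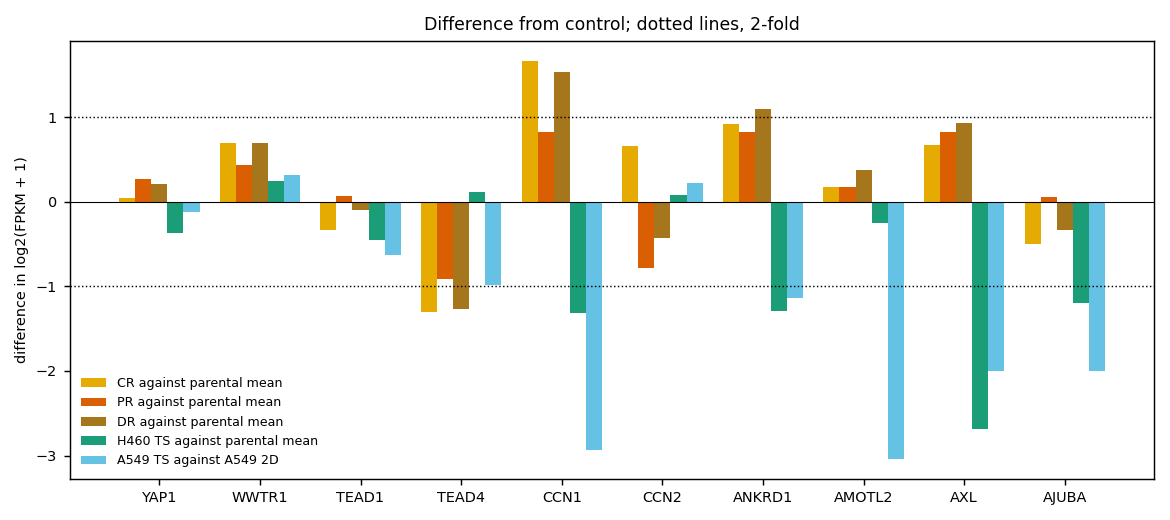
Difference in log2(FPKM + 1) of CR, PR, DR and H460 TS from the mean of the 3 parental libraries, and of A549 TS from A549 2D, for each gene, with dotted lines at 2-fold. CCN1 is above 0 in CR, PR and DR and below 0 in both TS libraries, and CCN2 lies near 0 in both TS libraries, at 0.08 and 0.23. The 0.08, in H460 TS, is from a mean that includes parental replicate 3, where CCN2 was 159 FPKM.

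PR was the one drug with replicates, and it was tested alone against the parental libraries. TEAD4 was 6.50 ± 0.41 FPKM (SD, n = 2) against 13.1 ± 1.71 FPKM (SD, n = 3), with a log2 fold change of -1.25 ± 0.25 (SE) and an adjusted p of 0.00758 by edgeR's quasi-likelihood test with Benjamini-Hochberg adjustment. It was the single gene of the 10 called, where 10.6% of 19430 genes tested were called lower and 17.5% higher. CCN1, ANKRD1 and AXL were 0.58, 0.91 and 0.67 on the log2 scale and were not called, with adjusted p of 0.179, 0.096 and 0.105 in the same test. CCN2 went the other way, at -1.04, and was not called either, with an adjusted p of 0.138 in that test. With PR replicate 1 or PR replicate 2 left out, 0 of the 10 genes were called, although TEAD4 kept log2 fold changes of -1.34 and -1.16, with adjusted p of 0.0576 and 0.114. The lone PR library is then assumed to vary like the parental ones. Without parental replicate 1, CCN2 was also called lower and ANKRD1 higher, with adjusted p of 0.0468 and 0.0477 in the same test. Without parental replicate 3, CCN1 and AXL were called higher, with 0.0432 and 0.0178. With upper-quartile scaling in place of TMM, the median of all genes moved from 0.05 to 0.30 and the share of higher calls from 62.2% to 75.9%, and ANKRD1 and AXL were called. For all drugs together, that scaling moved the median from 0.06 to 0.23 and the share of higher calls from 54.6% to 67.4%.

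Genes around these factors were described by count and median, beside the 18.5% of all genes called higher and 15.3% called lower in drug-resistant cells. Of the 21 kinases and regulators of the Hippo pathway, 2 were called higher and 3 lower, no more than the share of all genes, with a median log2 fold change of -0.13 against 0.06 for all genes tested. The 5 calls became 3 without the CR library, 2 without PR replicate 2 and 2 without the DR library. AMOT was called with each library left out and was higher, at 1.84, but its level was at most 0.444 FPKM. MOB1A, which activates the kinases LATS1 and LATS2 that phosphorylate YAP1, was called likewise and was lower, at -0.90.

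Of 17 other YAP/TEAD targets 7 were called higher, above the 18.5% of all genes, and 3 lower, near the 15.3%, with a median of 0.42. These 10 calls became 6 without parental replicate 2, 6 without PR replicate 2 and 6 without the DR library. GADD45A, a stress gene, rose by 2.19, IGFBP3 by 1.94 and FJX1 by 1.72 on the log2 scale, and these 3 were called with each library left out. IGFBP3 was 79.9 FPKM in parental replicate 1 but 455 and 480 FPKM in the other parental libraries, and between 1032 and 1592 FPKM in drug-resistant cells. Among 15 tested genes of the SRF and MRTF factors, which respond to actin, 3 were called higher and 4 lower. ACTA2 was 5.84, 6.45 and 10.1 FPKM in parental cells and between 27.3 and 33.3 FPKM in the drug-resistant ones, while ACTB, cytoplasmic actin, was 1997, 1356 and 1630 FPKM and then between 569 and 937 FPKM. The SRF list thus held genes moving both ways.

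Of 15 genes of focal adhesions, where cells hold the matrix, 5 were called higher and 2 lower, the latter near the 15.3% of all genes. These 7 calls became 3 without parental replicate 1, parental replicate 2 or the DR library and 4 without the CR library, PR replicate 1 or PR replicate 2. PARVA, at 0.91, and FERMT2, at -0.92, were called with each library left out. Of 15 immediate-early genes 6 were called higher, above the 18.5% of all genes, and 0 lower, with EGR2 at 3.60, EGR3 at 2.77 and IER3 at 2.76. IER3 was between 27.5 and 43.5 FPKM in parental and between 155 and 494 FPKM in drug-resistant cells, while EGR2 and EGR3 were at most 0.882 FPKM. Without parental replicate 3, in which FOS and EGR1 were high, 11 of these genes were called, and 3 without parental replicate 1 or without parental replicate 2. CCN3 and CCN5, in the family of CCN1 and CCN2, rose by 3.17 and 2.96 on the log2 scale, and of the receptors related to AXL, MERTK rose by 1.45 and TYRO3 was at -0.94. VGLL4, which competes with YAP1 for TEAD factors, was called higher, at 1.02.

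To ask what suspension culture changed, TS was compared with 2D in both lines. CCN1, ANKRD1, AXL and AJUBA were lower in TS than in 2D in both lines, but none of the 10 genes passed the test. In the additive fit, edgeR's quasi-likelihood test with Benjamini-Hochberg adjustment called 0 of the 10 genes, where 0.145% of 19941 genes were called higher and 0.0401% lower. At an unadjusted p under 0.05 there were 4 of the 10 and 1627 of all genes, and DESeq2 called 4, which were CCN1, ANKRD1, AXL and AJUBA, and 538 of 17234 genes, while both limma settings called 0. Each line has 1 TS library, so the 2 lines served as replicates.

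CCN1 was 18.9 FPKM in H460 TS against 35.6 to 62.1 FPKM in parental cells, and 7.56 FPKM in A549 TS against 64.4 FPKM in A549 2D. It was therefore 2.56-fold lower than the parental mean in H460 TS and 8.52-fold lower in A549 TS. AJUBA, a LIM protein of cell junctions that binds LATS kinases, was 14.7, 9.98 and 13.6 FPKM in parental cells and 5.01 FPKM in H460 TS, and 33.0 FPKM in A549 2D and 7.51 FPKM in A549 TS. ANKRD1 was 0.0908 FPKM, from 12 reads, in H460 TS, and it was 11.3 FPKM in A549 2D and 4.59 FPKM in A549 TS. The log2 fold changes over both lines were -1.98 ± 0.47 (SE) for CCN1, -1.67 ± 0.32 (SE) for AJUBA and -2.70 ± 0.74 (SE) for ANKRD1, with adjusted p of 0.212, 0.126 and 0.296 by edgeR's quasi-likelihood test with Benjamini-Hochberg adjustment.

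AXL was at 0.04 FPKM, from 14 reads, in H460 TS, where the parental libraries had 1720 to 3059 reads. It was 75.8 FPKM in A549 2D and 18.3 FPKM in A549 TS, so that it was 143-fold lower in H460 TS than the parental mean and 4.15-fold lower in A549 TS than in A549 2D. The interaction of line and culture was called for AXL, with a log2 difference of 5.09 ± 0.76 (SE) and an adjusted p of 0.0376 by edgeR's quasi-likelihood test with Benjamini-Hochberg adjustment, and it was the single gene of the 10 among the 0.436% of genes called in this test. On log2(FPKM + 1) the fall was -2.69 in H460 and -1.99 in A549, and limma did not call the difference, at 0.68 with an adjusted p of 0.702. With a pseudocount of 0.1 limma gave 3.30 and 0.116, and edgeR without a filter gave 5.09 and 0.168 and called 0 of all genes, so that AXL was called in 6 of 9 alternatives. The spread of the interaction test, for any gene, rests on the 3 parental libraries, and the TS and A549 2D libraries are assumed to vary like them.

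**Figure D4:**
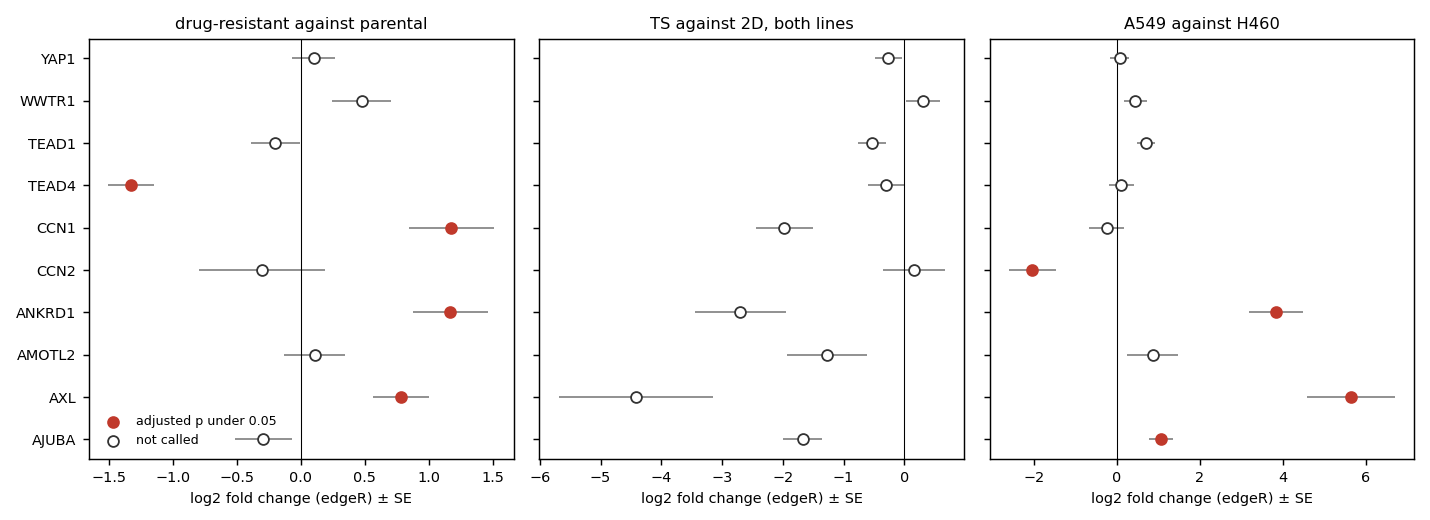
Log2 fold changes of the 10 genes by edgeR with their SE, for drug-resistant against parental, TS against 2D in both lines and A549 against H460. Filled points passed an adjusted p of 0.05: 4 in the first panel, 0 in the second and 4 in the third.

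AMOTL2, an angiomotin that holds YAP1 at junctions and is also its target, was 10.7, 6.69 and 12.2 FPKM in parental cells and 8.12 FPKM in H460 TS, within their range. In A549 it was 36.7 FPKM in 2D and 3.58 FPKM in TS, a 10.2-fold difference. The interaction was -3.04 ± 0.68 (SE) with an adjusted p of 0.126, which missed the threshold of edgeR's quasi-likelihood test with Benjamini-Hochberg adjustment. By DESeq2 it was called, with an adjusted p of 0.00285, and by edgeR it was called without parental replicate 1, with 0.0235. CCN2 was 97.6 FPKM in H460 TS, within the parental range, and 25.9 FPKM in A549 TS against 21.9 FPKM in A549 2D. It was not lower in TS in either line, unlike CCN1, ANKRD1, AXL and AJUBA, and was at 0.15 ± 0.51 (SE) on the log2 scale. With a parental replicate left out this value ranged from -0.0161 to 0.57. The level in H460 TS lay above parental replicates 1 and 2 and below parental replicate 3.

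By the 2-fold rule, 4 of the 10 genes were lower in H460 TS, CCN1, ANKRD1, AXL and AJUBA, against 4.02% of all genes in either direction. Of those 12414 genes, 271 were lower and 228 higher. In A549 TS 5 were lower, the same 4 and AMOTL2, against 9.73% of genes in either direction. Of those 12606 genes, 381 were lower and 845 higher. None was higher by this rule in either line. With parental replicate 2 alone as control for H460 TS, CCN1 and AJUBA missed the rule, and ANKRD1 and AXL still passed it. Of the 10 genes 6 lay below all 3 parental libraries in H460 TS, which were YAP1, TEAD1, CCN1, ANKRD1, AXL and AJUBA, against 20.5% of genes. No test of a list was made. Fewer cells with a given RNA and less of it per cell cannot be told apart in such bulk samples.

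None of the 8 other gene lists had a gene called between TS and 2D in the additive fit. The median log2 fold change was -0.91 for the 10 genes, -0.37 for 17 other YAP/TEAD targets, -0.47 for 16 SRF and MRTF targets, -0.36 for 14 immediate-early genes and -0.16 for 15 focal adhesion genes, against -0.00355 for all genes. It was -0.08 for the Hippo regulators, 0.16 for 4 other TEAD and VGLL genes and 0.11 for the AXL family. The median of 3 other CCN genes, -1.77, is the value of CCN5, and the others were low in TS and A549 cells. CCN4 was at most 0.593 FPKM, with 0 reads in H460 TS, and CCN3 was 0.481 FPKM in H460 TS and was higher in A549 TS, at 0.289 FPKM, than in A549 2D, at 0.13 FPKM. Of the SRF and MRTF targets 0 of 16 had a positive fold change, against 49.6% of all genes, but in H460 TS only 6 lay below all parental libraries, 9 lay within their range and 1 above, and FHL2 was 20.9 FPKM in A549 TS against 19.1 FPKM in A549 2D. NT5E, another target and a cell-surface enzyme, was 2.27 FPKM in H460 TS against 12.9 to 17.3 FPKM in parental cells, but 42.5 FPKM in A549 TS against 8.49 FPKM in A549 2D. Its difference between lines was called, at 5.01 ± 0.59 (SE) on the log2 scale with an adjusted p of 0.019 by edgeR's quasi-likelihood test with Benjamini-Hochberg adjustment, where 0.436% of all genes were called, but not without a filter, where 0 were. IGFBP3 went the other way in both lines, at 1092 FPKM in H460 TS against 79.9 to 480 FPKM in parental cells and 1226 FPKM in A549 TS against 144 FPKM in A549 2D.

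The lines themselves differed in their targets. In A549 AXL, ANKRD1 and AJUBA were higher and CCN2 was lower than in H460, so 3 of the 10 were called higher, against 13.7% of 19941 genes, and 1 lower, against 8.42%. AXL was 75.8 FPKM in A549 2D, above every other library, and this level was 13.3-fold that of the parental mean. The log2 fold change between lines over both cultures was 5.65 ± 1.06 (SE) with an adjusted p of 0.0115 by edgeR's quasi-likelihood test with Benjamini-Hochberg adjustment. It is larger than the fold in 2D because it also draws on H460 TS, at 0.04 FPKM. ANKRD1, which was 6.77-fold higher in A549 2D than in parental cells and likewise nearly absent from H460 TS, was 3.84 ± 0.65 (SE), with an adjusted p of 0.00764, and AJUBA 1.07 ± 0.29 (SE), with 0.038, in the same test. CCN2 was 21.9 and 25.9 FPKM in A549 and 47.1 FPKM or more in every H460 library, at -2.03 ± 0.56 (SE) with an adjusted p of 0.0418 in the same test. The calls of CCN2 and AJUBA were lost without parental replicate 2, with adjusted p of 0.068 and 0.0627. That of AJUBA was also lost without parental replicate 1, at 0.075, and without parental replicate 3, at 0.0679. Both were lost by limma with a pseudocount of 1, at 0.0524 and 0.0616, and without a filter, at 0.0543 and 0.0563.

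Among the other lists, WTIP and WWC1 were higher and FRMD6 and PTPN14 lower in A549 within the Hippo regulators, of which 2 of 21 were called higher, against 13.7% of all genes, and 4 lower, against 8.42%. VGLL3, a TEAD cofactor, was 1.62 FPKM in A549 2D and at most 0.0805 FPKM in H460. Of 16 SRF and MRTF targets 7 were called higher, against 13.7% of all genes, and 1 lower, against 8.42%. Of 17 other YAP/TEAD targets 5 were called higher and 2 lower. The called genes were 4 to 5 and 4 to 6 in these lists when a parental replicate was left out. PTPN14 counts among the lower calls of both the Hippo regulators and the other YAP/TEAD targets. TPM2 was 258 FPKM and TPM1 328 FPKM in A549 2D, against at most 4.93 and 17.4 FPKM in H460. These are tropomyosins, which line actin filaments. Of 15 focal adhesion genes 8 were called higher in A549, against 13.7% of all genes, and 0 lower, against 8.42%, among them PARVA at 2.24 and TNS3 at 2.19.

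Across the 10 libraries, ANKRD1 and AXL were the most alike of the 10 genes, with a Pearson r of 0.956 for log2(FPKM + 1). CCN2 had an r of -0.60 with ANKRD1, -0.60 with AXL and 0.37 with CCN1. Among 7056 protein-coding genes with a mean of at least 1 FPKM and a log2 range of at least 1, the 5 most like CCN2 were MARK4, DOC2B, NHSL1, RADIL and EEF2, with r between 0.914 and 0.952. The 5 most like the mean of the 6 scaled targets were CAV1, CRIM1, ACTN1, PAQR5 and DENND2B, with r between 0.867 and 0.896. CAV1, the coat protein of caveolae, was 86.5, 121 and 122 FPKM in parental cells and 24.1 FPKM in H460 TS, and 190.4 FPKM in A549 2D and 45.3 FPKM in A549 TS. The libraries share lines and controls, so these r describe 10 points that are not independent, and no p is given.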

How the data were processed

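Poly(A) RNA of the 10 cultures was sequenced with Illumina TruSeq libraries. The submitters' processing notes name bcl2fastq 1.8.4, Trimmomatic, HISAT2 2.1.0, StringTie 2.1.3b and GRCh38; strand is not stated. The authors deposited read counts per gene, not normalized, and FPKM values. In each library a count of 2 was commoner than a count of 1 (987 and 672 genes in parental replicate 1), so a count may be estimated. Groups follow the sample labels, which call TS libraries CTC. The members and lists were chosen with earlier results of these data known. Counts of all genes were fitted with edgeR 4.0.16 in R 4.3.3 (TMM, filterByExpr, glmQLFit, glmQLFTest), with adjusted p under 0.05 called. The fits were drug-resistant or PR against parental, TS and line as additive terms, and their interaction. DESeq2 1.42.0, limma 3.58.1, other scaling, filters, pseudocounts (1 and 0.1), left-out libraries, name form and a replicate block were alternatives. All 10 genes were named. The lists share genes, since LATS2 and PTPN14 are among both the Hippo regulators and the other YAP/TEAD targets. VCL and ACTN1 are in both the SRF and the focal adhesion lists. In each list, up to 3 called genes per direction with the largest fold change were taken. Of these, some that were called with each library left out were named. TEAD2, TEAD3, TPM1 and the uncalled FOS, FOSB and EGR1 were named besides, as were FHL2, IGFBP3 and other CCN genes in TS cells. For likeness, 5 genes were named. Tissue markers were given as levels. RefSeq coordinates are GRCh38.p14. Pearson's r across genes was 0.986 to 0.991 between parental replicates and 0.993 between PR replicates.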

Additional observations from a re-analysis of the deposited data

Results flagged for a closer look

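AXL is listed because its TS difference was not the same in the lines by the interaction test, at 5.09 on the log2 scale (A549 minus H460). It was 0.04 FPKM in H460 TS, and the fall in A549 was the smaller. On log2(FPKM + 1) the difference was 0.68 and was not called, nor was it by limma with a pseudocount of 0.1, at 3.30, or by edgeR without a filter, at 5.09.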

How the results depend on the processing

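TEAD4 kept its direction in drug-resistant and PR cells under each alternative. Of the counts of called genes among the 10, that for all drugs together was 4 and became 2 with the form of library name as a covariate and 1 to 5 when a library was left out. For PR it was 1, and it was 3 with upper-quartile scaling, 2 with limma on either pseudocount, 3 with the replicate block, 3 without the block on the same 4 libraries, and 0 to 3 when a library was left out; all genes called were 5455, but 2742 with the FPKM filter and 950 to 6661 when a library was left out. Parental and PR libraries with the same replicate number, 1 or 2, also share the form of the library name; over 12496 genes the differences of parental and of PR replicates 1 and 2 had r = 0.142, and the block called 6775 genes against 6661 without it. For TS the count was 0, and 4 by DESeq2; all genes called were 37, but 538 by DESeq2, 1 and 15 by limma with pseudocounts of 1 and 0.1, 19 with the FPKM filter and 3 to 33 without a parental replicate. For A549 against H460 it was 4, and 2 by limma with a pseudocount of 1, 2 without a filter and 2 to 3 without a parental replicate; all genes called were 4405, but 2843 with the FPKM filter and 2516 to 3654 without a parental replicate. For the interaction it was 1, and 3 by DESeq2, 0 by limma on either pseudocount, 0 without a filter and 1 to 2 without a parental replicate; all genes called were 87, but 542 by DESeq2, 1357 and 1108 by limma, 0 without a filter and 116 to 656 without a parental replicate. By the 2-fold rule the counts were 2 in CR (4 with parental replicate 2 alone as control), 0 in PR (1 with a pseudocount of 0.1, 3 with upper-quartile scaling, and 2, 1 and 1 with parental replicates 1, 2 and 3 alone) and 4 in H460 TS (2 with parental replicate 2 alone). They were 3 in DR and 5 in A549 TS. With a pseudocount of 0.1, ANKRD1 passed as well in CR, AXL in DR and TEAD4 in A549 TS. With single parental replicates as control, the genes that passed also changed in CR and DR. Some uncalled values changed sign. In PR these were TEAD1, AMOTL2 and AJUBA, at -0.16, -0.08 and -0.15, which became 0.0689, 0.16 and 0.10 with upper-quartile scaling, 0.0567, 0.20 and 0.0655 by limma with a pseudocount of 1, 0.0598, 0.22 and 0.0705 with 0.1, and 0.0043, 0.0883 and 0.0243 with the FPKM filter; AMOTL2 was 0.0321 with the name form, 0.18 with the replicate block and 0.14 without it. With a library left out, YAP1 ranged from -0.11 to 0.19, TEAD1 from -0.42 to 0.0566, AMOTL2 from -0.31 to 0.14 and AJUBA from -0.34 to 0.0065 in PR, and AMOTL2 from -0.13 to 0.29 and CCN2 from -0.83 to 0.39 for all drugs. CCN2 ranged from -0.0161 to 0.57 in TS, and in the interaction from -0.50 to 0.54, with WWTR1 from -0.11 to 0.255; by limma CCN2 was -0.0308 and -0.0265 there. The cause of these changes was not tested. Single libraries of CR, DR, TS and A549 2D limit the comparisons that use them, and counts of 12 and 14 reads limit ANKRD1 and AXL in H460 TS.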
